A study of Bos taurus with 32 samples.

Results

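BPIFB1 and SPDEF were read by 2 of the 15208 probes of the array used here, control spots aside, where some other genes had several probes. Their probes, ABR856 for BPIFB1 and A_73_107060 for SPDEF, were selected on their ICAR minus CAR difference in these arrays, which was large for both, and BPIFB1 also on its difference between RB and non-RB cows in ipsilateral ICAR. CAR is the caruncular endometrium, the aglandular areas where the placenta attaches, and ICAR is the intercaruncular endometrium, which holds the uterine glands. Levels in CAR and ICAR, and the RB difference of BPIFB1 in ipsilateral ICAR, are therefore given as descriptions without a test. The RB comparisons of SPDEF, those of BPIFB1 in the other compartments and the comparisons between horns were not used in the selection and were tested. The relation of both genes within a compartment was also tested. That test is not free of the selection, since both genes were chosen on the same contrast.

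BPIFB1, also called LPLUNC1, is a secreted protein of the BPI fold family, whose members bind lipids and bacterial lipopolysaccharide, and it is best known from the mucous glands and goblet cells of the airway. SPDEF is an ETS transcription factor that drives the maturation of mucus-secreting epithelial cells in airway and gut. Uterine glands of ruminants secrete the histotroph that feeds the conceptus before it attaches.

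Endometrium came from non-lactating Japanese Black cows of which 4 were repeat breeders (RB) and 4 were not (non-RB), killed on Day 15 after estrus. RB cows had repeatedly failed to conceive after insemination. Non-RB cows had conceived, were aborted with prostaglandin F2α (cloprostenol) and had returned to normal cycles. RB cows showed estrus, but by the authors' definition their cycles were not always normal. None of the cows carried a conceptus at collection. CAR and ICAR were cut from the middle of the horn ipsilateral to the corpus luteum and of the contralateral horn, which gives 8 groups of 4 arrays and 32 arrays in all. Each compartment was dissected from whole tissue, so a sample holds epithelium, stroma, vessels and immune cells together. Groups are named by tissue, horn and cow status, and a replicate by its number in the labels, which do not state that the same number is the same cow.

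Each gene was read by 1 probe of 60 bases. The last 30 bases of both probes are shown, with capitals marking the hexamer AATAAA, the usual signal for polyadenylation. The probes were not aligned to transcripts, so whether the hexamer serves as a signal there was not tested.
BPIFB1: tccctacaatgAATAAActttgtgaatctt
SPDEF: gccaggggtgccctggggacggatAATAAA
The hexamer started at base 12 of these 30 in BPIFB1 and at base 25 in SPDEF. It was searched on the printed strand only and occurred in the last 30 bases of 1443 of the 15208 probes, or 9.49%. The BPIFB1 probe was listed under C20orf114 and the SPDEF probe under pdef, and accessions led to the current symbols.

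Values are log2 of the processed intensity divided by the 75th percentile of its array, so 0 is the level of a probe at that percentile and a step of 1 is a doubling. The 75th percentile lay between 1165 and 4857 intensity units, and between 74.3% and 85.8% of probes were well above background. Both probes were well above background on all 32 arrays, from 217.7 to 11407 intensity units for BPIFB1 and from 165.7 to 8372 for SPDEF. Neither had an outlier flag on any array. Levels of the 2 probes were not compared with each other, since probes differ in brightness.

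The contralateral arrays of RB replicate 3 lay opposite to their labels. In the array labelled CAR, BPIFB1 was at 1.49 and SPDEF at 1.19, in the range of ICAR. In the array labelled ICAR they were at -2.66 and -2.79, in the range of CAR. A score from other probes was made as the mean of the 100 probes most strongly higher in ICAR minus the mean of the 100 most strongly higher in CAR, chosen without the arrays of the replicate scored and without either member. This score was 2.21 in the array labelled CAR and -2.39 in the array labelled ICAR. The other 15 CAR arrays had scores of -2.29 to 2.04 with a median of -0.65, and the other 15 ICAR arrays -1.37 to 3.11 with a median of 1.94. The labels were kept, and most results that rest on these arrays, called the discordant arrays from here on, are given with and without them. That choice was made after the values were seen.

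**Figure D1:**
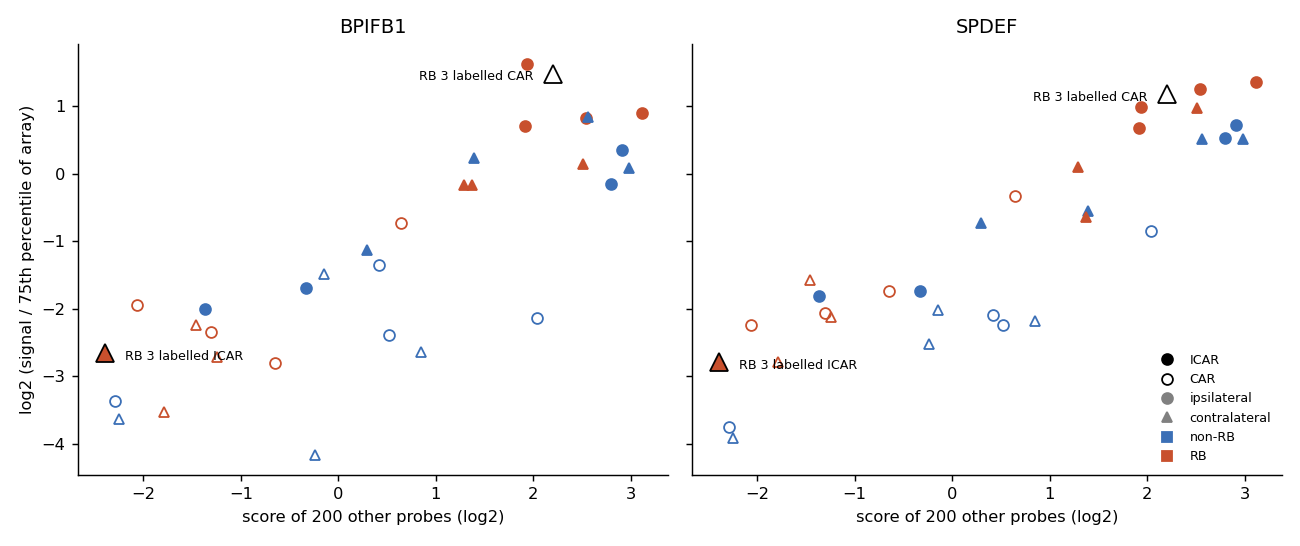
Level of BPIFB1 (left) and SPDEF (right) on each of the 32 arrays against the score from other probes, both as log2, with filled symbols for ICAR, open symbols for CAR, circles for the ipsilateral and triangles for the contralateral horn, and colour for cow status. The large black-edged triangles are the discordant arrays, with the one labelled CAR at a score of 2.21 and the one labelled ICAR at -2.39.

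In CAR of the ipsilateral horn, BPIFB1 was at -2.39, -1.35, -3.37 and -2.14 in non-RB replicates 1 to 4 and at -2.35, -0.73, -1.94 and -2.80 in RB replicates 1 to 4. In CAR of the contralateral horn, it was at -2.64, -1.48, -3.64 and -4.17 in non-RB and at -2.71, -2.24, 1.49 and -3.53 in RB. Replicate 3 of RB, a discordant array, was the only CAR array with BPIFB1 above 0.

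In ICAR of the ipsilateral horn, BPIFB1 was at 0.35, -1.70, -2.01 and -0.15 in non-RB and at 0.90, 0.70, 1.63 and 0.83 in RB. In ICAR of the contralateral horn, it was at 0.84, -1.13, 0.24 and 0.08 in non-RB and at -0.17, -0.16, -2.66 and 0.15 in RB. All 4 ipsilateral RB arrays lay above the 4 non-RB arrays, whereas in the contralateral horn the 2 groups overlapped. Non-RB replicates 2 and 3 of the ipsilateral horn lay within the range of CAR.

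SPDEF in ipsilateral CAR was at -2.25, -2.09, -3.76 and -0.85 in non-RB and at -2.07, -0.33, -2.25 and -1.74 in RB. In contralateral CAR it was at -2.18, -2.02, -3.91 and -2.53 in non-RB and at -2.13, -1.58, 1.19 and -2.79 in RB. The same discordant array was the only CAR array with SPDEF above 0, and non-RB replicate 3 had the lowest CAR level in both horns.

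SPDEF in ipsilateral ICAR was at 0.72, -1.74, -1.82 and 0.54 in non-RB and at 1.36, 0.68, 0.98 and 1.26 in RB. In contralateral ICAR it was at 0.51, -0.72, -0.55 and 0.51 in non-RB and at -0.64, 0.10, -2.79 and 0.97 in RB. As for BPIFB1, ipsilateral non-RB replicates 2 and 3 were the low arrays. Non-RB replicate 1, at 0.72, was above the lowest RB array, so these groups overlapped for SPDEF.

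**Figure D2:**
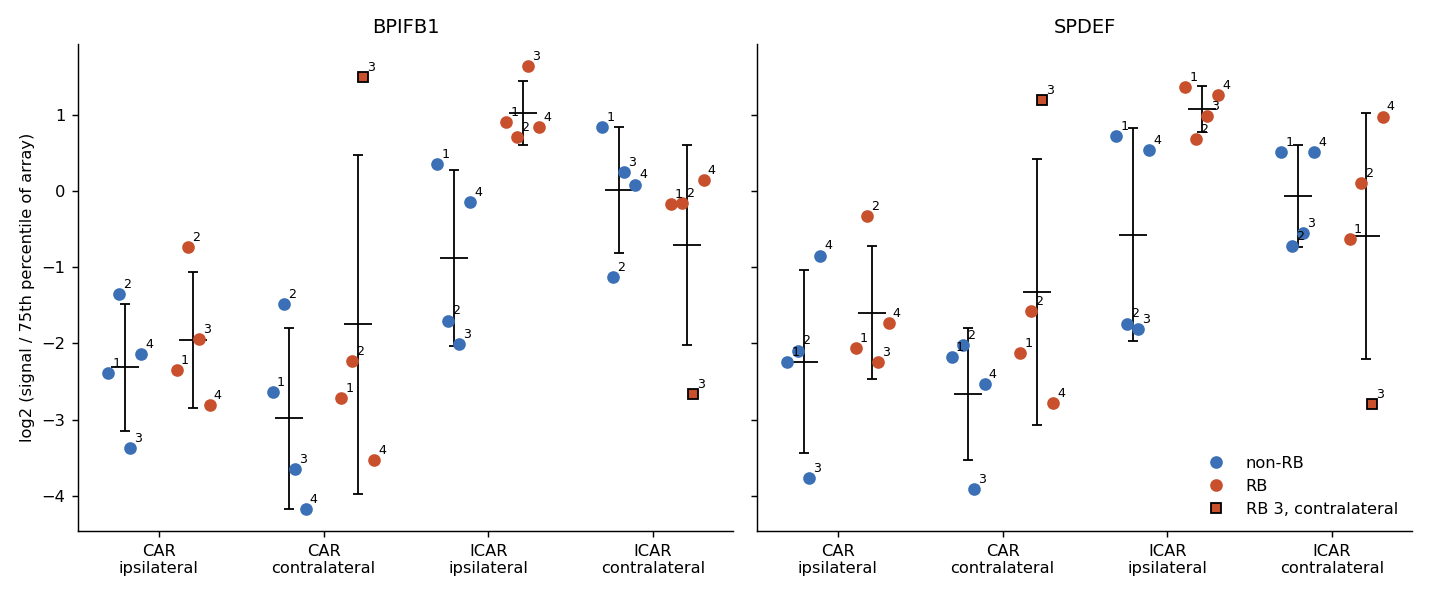
Level of BPIFB1 (left) and SPDEF (right) as log2 of signal over the array's 75th percentile, with 1 point per array numbered by replicate, and the mean with SD of each group of 4 arrays in black. Ipsilateral ICAR of RB cows is highest for both genes, with means of 1.02 and 1.07, and the squares mark the discordant arrays.

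The order of the 8 group means was nearly the same for both genes. Ipsilateral ICAR of RB cows was highest, at 1.02 ± 0.42 (SD, n = 4) for BPIFB1 and 1.07 ± 0.30 for SPDEF. Contralateral ICAR of non-RB cows followed at 0.01 ± 0.83 for BPIFB1 and -0.07 ± 0.67 for SPDEF. The other ICAR groups were contralateral RB, at -0.71 ± 1.31 for BPIFB1 and -0.59 ± 1.61 for SPDEF, and ipsilateral non-RB, at -0.88 ± 1.15 for BPIFB1 and -0.57 ± 1.39 for SPDEF. These last 2 changed places between the genes. With all arrays kept, the highest mean stood above the next by more than either group's SD for both genes. Neighbours among the 3 lower ICAR means then differed by less than their SDs. Without the discordant array, contralateral RB was at -0.06 ± 0.18 (n = 3) for BPIFB1 and 0.15 ± 0.81 for SPDEF. For SPDEF this was above contralateral non-RB.

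The 4 CAR groups took the lowest places for both genes, from contralateral RB through ipsilateral RB and ipsilateral non-RB to contralateral non-RB. Their means ran from -1.75 ± 2.22 to -2.98 ± 1.19 for BPIFB1 and from -1.33 ± 1.75 to -2.66 ± 0.86 for SPDEF. Neighbours among the CAR groups differed by less than their SD. Without the discordant array, contralateral RB fell to -2.83 ± 0.65 (n = 3) for BPIFB1 and -2.16 ± 0.60 for SPDEF.

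Both members were higher in ICAR than in CAR on nearly all pairs of samples that shared a horn, status and number. The ICAR minus CAR difference of BPIFB1 was above 0 in 14 of 16 such pairs, with a median of 2.64, and above 1 in 13. That of SPDEF was above 0 in 15 of 16, with a median of 2.32, and above 1 in 14. The exceptions were the discordant arrays for both genes, at -4.14 and -3.98, and ipsilateral non-RB replicate 2 for BPIFB1, at -0.35, where SPDEF was at 0.35.

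In the ipsilateral horn of non-RB cows, mean BPIFB1 was 1.44 higher in ICAR than in CAR, or 2.71-fold, with an SD of the 4 differences of 1.32. SPDEF was 1.66 higher there, or 3.17-fold, with an SD of 1.09. The ICAR and CAR arrays overlapped for both genes in this group, and 0.139% of the probes had every ICAR array above every CAR array.

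In the ipsilateral horn of RB cows, BPIFB1 was 2.97 higher in ICAR, or 7.85-fold, with an SD of 1.04, and SPDEF was 2.67 higher, or 6.35-fold, with an SD of 1.12. Every ICAR array lay above every CAR array for both genes, as did 4.63% of the probes in these 8 arrays.

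In the contralateral horn of non-RB cows, BPIFB1 was 2.99 higher in ICAR, or 7.95-fold, with an SD of 1.79. SPDEF was 2.60 higher, or 6.05-fold, with an SD of 0.91. Here too every ICAR array lay above every CAR array, as did 1.34% of the probes.

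In the contralateral horn of RB cows the difference fell to 1.04 for BPIFB1 and 0.74 for SPDEF, with SDs of 3.52 and 3.31. Leaving out the discordant arrays gave 2.76, or 6.79-fold, for BPIFB1 and 2.31, or 4.96-fold, for SPDEF, with ICAR and CAR apart for both. Of the probes in this group, 0.129% had ICAR and CAR apart over all 8 arrays and 9.47% without the discordant arrays. Without RB replicate 4, and with the discordant arrays kept, the SPDEF difference in this group turned to -0.27.

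**Figure D3:**
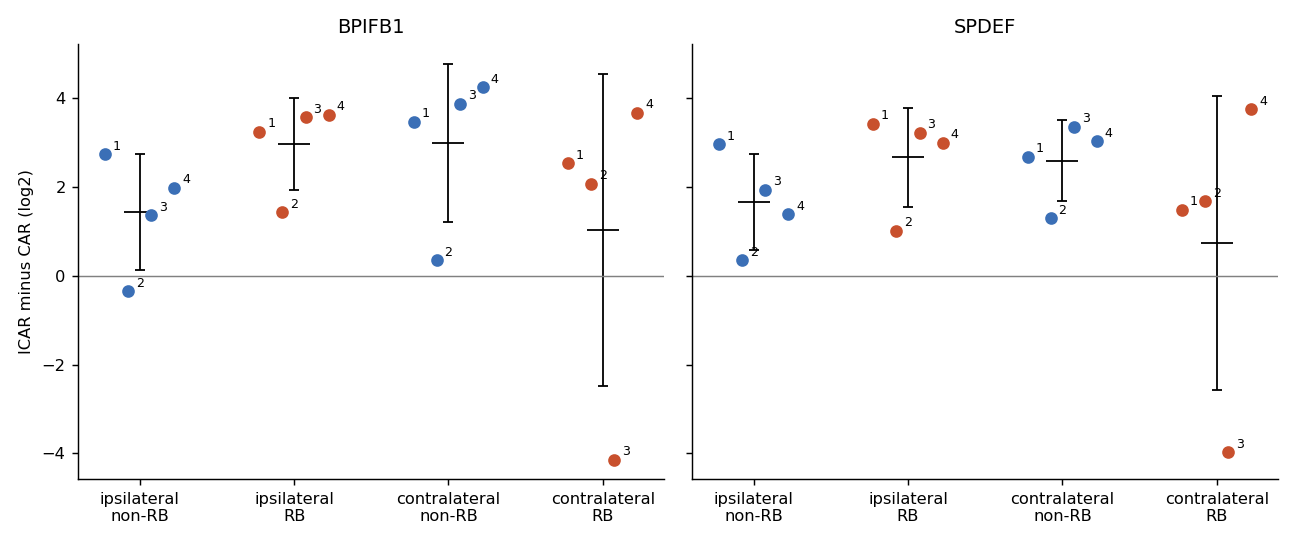
ICAR minus CAR (log2) of BPIFB1 (left) and SPDEF (right) for arrays with the same horn, status and replicate number, with 1 point per number and the mean with SD of 4 in black. Points lie above 0 apart from RB replicate 3 of the contralateral horn for both genes and ipsilateral non-RB replicate 2 for BPIFB1.

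Over all arrays, with horn and status in the model, BPIFB1 was 2.11 higher in ICAR (SE 0.40), or 4.31-fold, which ranked 4 among the differences of 12919 probes. SPDEF was 1.92 higher (SE 0.39), or 3.77-fold, and ranked 8. With the discordant arrays left out, the differences were 2.54 (SE 0.30) and 2.31 (SE 0.32), with ranks of 3 and 8 among 12868 probes. The median over all probes was -0.02 with and without them. In whole tissue, more cells of a type and more transcript per cell cannot be told apart.

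The ICAR excess was present within slides and scan sessions. Of 8 slides 6 held both tissues, and BPIFB1 was higher in ICAR on all 6, by 0.73 to 3.13, as was SPDEF, by 0.48 to 2.89. The lowest slide gave 2.15 for BPIFB1 and 1.72 for SPDEF once the discordant arrays were left out. Arrays fell into 4 scan sessions by calendar month, and the differences were 1.33 to 3.11 for BPIFB1 and 1.28 to 2.53 for SPDEF within them.

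The tissue contrast did not differ detectably between horns for either gene. Its ipsilateral minus contralateral value was 0.19 for BPIFB1 (95% interval -1.46 to 1.84) and 0.50 for SPDEF (-1.11 to 2.11). These values became -0.67 (-1.90 to 0.56) and -0.29 (-1.59 to 1.01) without the discordant arrays. The adjusted p from limma was 0.9998 for both genes over all arrays, and the intervals include differences of more than 1 in both directions.

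Nor did the level differ detectably between horns within a tissue. In CAR the ipsilateral minus contralateral difference was 0.23 for BPIFB1 (95% interval -1.07 to 1.53) and 0.08 for SPDEF (-1.06 to 1.21). Both signs turned with scan session as a block, to -0.18 and -0.22, and without non-RB replicate 4, to -0.03 and -0.15. In ICAR it was 0.42 for BPIFB1 (-0.73 to 1.57) and 0.58 for SPDEF (-0.61 to 1.77). The adjusted p from limma was 0.99997 in CAR and 0.99996 in ICAR. Leaving out the discordant arrays, the ICAR values shrank to 0.02 and 0.15, while those of CAR rose to 0.76 (-0.13 to 1.66) and 0.49 (-0.40 to 1.38).

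RB and non-RB cows were compared for both genes. Only non-RB cows had a pregnancy ended with cloprostenol, so infertility and that treatment cannot be told apart here. In ipsilateral ICAR, BPIFB1 was 1.89 higher in RB cows, or 3.71-fold, with every RB array above every non-RB array, as for 0.908% of the 12889 probes tested. This difference helped select the gene and was not tested here, though the authors tested it on these arrays and by quantitative PCR. SPDEF in the same arrays was 1.65 higher, or 3.13-fold (95% interval 0.31 to 2.99), with an adjusted p from limma of 0.863 and a two-sided exact permutation p of 0.0571, where 4 against 4 can give no less than 0.0286. The SPDEF difference thus did not pass the test over all probes. No probe passed it in this compartment in limma or in the methods' t-test after adjustment, and 3.69% had an unadjusted limma p under 0.05.

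The lowest arrays for both genes in this compartment, those of non-RB replicates 2 and 3, also had its lowest scores from other probes. Those scores were -0.33 and -1.37. Scores were 2.91 and 2.79 in non-RB replicates 1 and 4 and 1.91 to 3.11 in RB. In non-RB replicates 1 and 4, BPIFB1 was at 0.35 and -0.15, below every RB array. SPDEF was at 0.72 and 0.54 there, and at 0.68 to 1.36 in RB. The 8 ciliated cell markers on the array had a median RB minus non-RB difference of 0.87, against -0.03 over all probes, and their summed level was 2.52 to 8.78 in non-RB and 4.67 to 8.32 in RB cows. The 9 epithelial markers had a median difference of 0.12, with summed levels of 24.6 to 56.8 in non-RB and 31.9 to 48.6 in RB cows. The part of tissue composition in the RB difference was not tested.

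Slides 6 and 8 held both statuses in ipsilateral ICAR, 1 array of each. SPDEF was higher in RB by 3.08 and 3.10 on them and BPIFB1 by 2.84 and 2.60, the non-RB arrays there being replicates 3 and 2. With slide as a block the SPDEF difference was 3.09 (adjusted p from limma 0.127). Within the 3 scan sessions that held both, SPDEF differed by 0.11 to 3.10 and BPIFB1 by 0.82 to 2.60.

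In the other compartments RB and non-RB cows did not differ detectably. In contralateral ICAR the RB minus non-RB difference was -0.72 for BPIFB1 (95% interval -2.21 to 0.77) and -0.52 for SPDEF (-2.19 to 1.14), and without RB replicate 3 it was -0.07 (-1.09 to 0.95) and 0.21 (-0.91 to 1.33). In ipsilateral CAR it was 0.36 for BPIFB1 (-0.79 to 1.498) and 0.64 for SPDEF (-0.71 to 1.99). Its sign turned for BPIFB1 without RB replicate 2, at -0.05, and with scan session as a block, at -0.06. In contralateral CAR it was 1.24 for BPIFB1 (-1.12 to 3.59) and 1.33 for SPDEF (-0.51 to 3.18), and fell to 0.16 and 0.50 without RB replicate 3. Adjusted p-values from limma were 0.9997 to 0.9998, and exact permutation p-values were 0.257 to 0.657. Unadjusted p was under 0.05 for 3.41% of probes in ipsilateral CAR, 1.74% in contralateral CAR and 1.60% in contralateral ICAR, and no probe passed after adjustment in limma or in the methods' t-test.

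Within slides that held both statuses, the RB difference in contralateral ICAR was -0.09 to 0.96 for BPIFB1 and 0.09 to 1.53 for SPDEF. In contralateral CAR it was -0.08 to 0.11 for BPIFB1 and 0.05 to 1.13 for SPDEF. No slide held both statuses in ipsilateral CAR, where the values within scan sessions were -0.67 to 0.20 for BPIFB1 and -0.89 to 0.62 for SPDEF.

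The tissue contrast itself did not differ detectably between RB and non-RB cows. For SPDEF in the ipsilateral horn, ICAR minus CAR was 1.004 larger in RB cows (95% interval -0.95 to 2.96). It was 0.20 with slide as a block and 0.57 without non-RB replicate 2. The same value for BPIFB1, 1.54, follows in part from the selection and is given without a test, and it was 0.77 with slide as a block and 0.94 without non-RB replicate 2. In the contralateral horn the RB minus non-RB value of this contrast was -1.95 for BPIFB1 (-4.79 to 0.88) and -1.86 for SPDEF (-4.38 to 0.66). These contralateral values became -0.23 (-2.02 to 1.57) and -0.29 (-1.89 to 1.32) without the discordant arrays. The adjusted p from limma was 0.9998 for both contralateral values and 0.999992 for SPDEF in the ipsilateral horn.

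BPIFB1 and SPDEF rose and fell together within a compartment. Both were selected on the same tissue contrast, so the p-values do not set this relation apart from that of other probes with that contrast. Pearson's r over the 8 arrays was 0.95 in ipsilateral ICAR (exact permutation p = 0.00394) and 0.89 in contralateral ICAR (p = 0.0107). It was 0.92 in contralateral CAR (exact permutation p = 0.00568) and 0.73 in ipsilateral CAR (p = 0.0406). Adjusted over these 4 relations the exact permutation p-values were 0.0114 for ipsilateral ICAR and contralateral CAR, 0.0142 for contralateral ICAR and 0.0406 for ipsilateral CAR. Spearman's rho was 0.90 in ipsilateral ICAR (exact permutation p = 0.00456, adjusted 0.0145), 0.74 in contralateral ICAR (p = 0.0458, adjusted 0.0611), 0.88 in contralateral CAR (p = 0.00724, adjusted 0.0145) and 0.52 in ipsilateral CAR (p = 0.197, adjusted 0.197).

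These relations rested on few arrays. Without the 2 arrays farthest from the median of SPDEF, r was 0.59 in ipsilateral ICAR, 0.65 in contralateral ICAR, 0.74 in contralateral CAR and -0.15 in ipsilateral CAR, with exact permutation p of 0.229, 0.153, 0.0847 and 0.703 before adjustment. The arrays left out were non-RB replicates 2 and 3 in ipsilateral ICAR, and RB replicates 3 and 4 in contralateral ICAR. In CAR they were RB replicate 2 and non-RB replicate 3 of the ipsilateral horn, and RB and non-RB replicates 3 of the contralateral horn.

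Without the discordant arrays alone, r was 0.65 in contralateral CAR and 0.58 in contralateral ICAR, over 7 arrays each. The adjusted exact permutation p was then 0.137 and 0.173, and that of ipsilateral CAR became 0.0812, since it is adjusted together with them. Measured as deviations from the mean of each status, r was 0.91 in ipsilateral ICAR, 0.88 in contralateral ICAR, 0.91 in contralateral CAR and 0.71 in ipsilateral CAR. No slide held more than 2 arrays of a compartment and no scan session more than 5, too few for a relation within them. Mean levels of both genes differed between the tissues, which would enter a pooled correlation, so none pooled over tissues was tested.

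**Figure D4:**
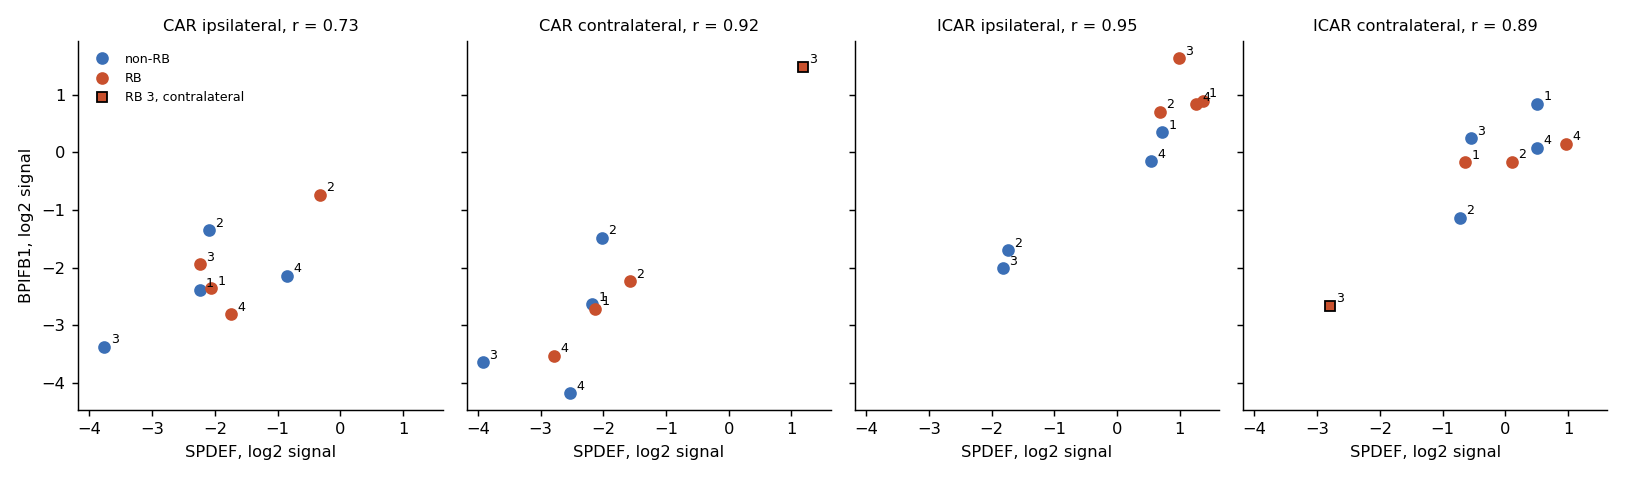
BPIFB1 against SPDEF, both as log2 signal, in each compartment, with 1 point per array numbered by replicate, colour for cow status and squares for the discordant arrays. The points of ipsilateral ICAR fall into 6 high arrays and 2 low arrays, non-RB replicates 2 and 3.

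The score from other probes also moved with both genes within compartments when all arrays were kept. As a description over 8 arrays each, its correlation with SPDEF was 0.94 in ipsilateral and 0.96 in contralateral ICAR, and with BPIFB1 0.83 and 0.94. In CAR it was 0.74 and 0.81 with SPDEF and 0.49 and 0.74 with BPIFB1, in the ipsilateral and contralateral horn. The contralateral values include the discordant arrays and were not computed without them. The part of the score in the relation of the 2 genes was not tested.

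Likeness to other genes was described by the correlation over all 32 arrays among 12384 probes, which share the tissue contrast. SPDEF was in place 6 of the probes most like BPIFB1 (r = 0.93), and BPIFB1 in place 13 of those most like SPDEF. The named genes most like BPIFB1 were PRSS16, a serine protease (r = 0.97), and TMPRSS2, a transmembrane serine protease of epithelia (r = 0.94). After SPDEF came ESR2, the estrogen receptor beta (r = 0.92), DNAAF1, an assembly factor of ciliary dynein arms (r = 0.92), and TUBA1D, an alpha tubulin (r = 0.92).

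Those most like SPDEF were IHH, the hedgehog ligand of uterine epithelium that responds to progesterone (r = 0.96), C13H20orf85 (r = 0.95), RASSF4 (r = 0.95), TMPRSS2 (r = 0.94), ZNF475, listed in the files as ZNF474 (r = 0.94), and DNAAF1 (r = 0.94). Both members thus shared TMPRSS2 and DNAAF1 among their first 6. These correlations were 0.92 to 0.96 for BPIFB1 and 0.93 to 0.96 for SPDEF when the discordant arrays were left out.

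Within the 16 ICAR arrays, after subtracting the mean of each horn, the lists differed in part. TMPRSS2 (r = 0.96), PRSS16 (r = 0.94), NNT, the mitochondrial transhydrogenase (r = 0.93), IHH (r = 0.93), CLDN7, a tight junction claudin (r = 0.93), and ESR2 (r = 0.92) were most like BPIFB1. GRHL1, an epithelial transcription factor (r = 0.98), IHH (r = 0.97), FBP2, a fructose bisphosphatase (r = 0.96), RASSF4 (r = 0.95), CDC42EP3 (r = 0.95) and MSX1, a homeobox factor of uterine epithelium (r = 0.94), were most like SPDEF. Between the members r was 0.92, in place 21 for BPIFB1 and 28 for SPDEF among 12244 probes. These 16 arrays include a discordant array, and without it r was 0.90 to 0.94 for the genes most like BPIFB1 and 0.92 to 0.97 for those most like SPDEF.

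Genes related to the members by family or function were set against all probes. Over all arrays 72 of 12919 probes, or 0.557%, differed between ICAR and CAR at an adjusted p under 0.05 in limma, 0.449% higher and 0.108% lower in ICAR. The discordant arrays weighed on this count, which was 1160 of 12868, or 9.01%, without them, with 4.53% higher and 4.48% lower. It was 841 without RB replicate 3, 401 without non-RB replicate 2 and 0 without any of non-RB replicates 1, 3 or 4 or RB replicates 1, 2 or 4. At an unadjusted p under 0.05 it was 1928 over all arrays. This fit took the samples as independent, although several came from each cow. With replicate number as a block on the mean of both horns, the count at an adjusted p under 0.05 was 0. The smallest adjusted p from limma was then 0.0674. Each list is therefore given with and without the discordant arrays. Since these arrays were picked for lying against this same contrast, their removal favours calls. Calls and p-values without them are given as a description.

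Of 4 other BPI fold and lipid transfer genes tested, none was called, with a median difference of -0.16. In the fit that left out the discordant arrays, of 3 relatives tested BPIFA1, an airway BPI fold protein, was higher by 0.77 (adjusted p from limma 0.0283), PLTP, the plasma phospholipid transfer protein, was lower by 0.59 (adjusted p 0.0488) and BPIFB2 was at -0.24.

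Among 15 other ETS transcription factors tested, the relatives of SPDEF, none was called over all arrays, with a median of 0.04. In the other fit EHF, an ETS factor of epithelia, was higher in ICAR by 0.75 (adjusted p from limma 0.0271) and 14 were not called. ELF5, another epithelial ETS factor, was at 0.41 and ERG, which is endothelial, at 0.10.

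In the secretory cell program, 2 of 11 other genes were called higher over all arrays and 0 lower, with a median of 0.34. FOXA2, a forkhead factor needed for uterine gland development, rose by 1.69 (adjusted p from limma 0.0473) and GALNT6, which starts mucin-type O-glycosylation, by 1.57 (adjusted p 0.0432). In the fit without the discordant arrays 4 of 11 were called, with FOXA2 at 2.05, GALNT6 at 1.86, GCNT3, a mucin branching enzyme, at 1.62 and the mucin MUC1 at 0.91. AGR2, a disulfide isomerase of mucus cells and a known target of SPDEF, was at 0.48 and XBP1, a secretory stress factor, at 0.17, neither of them called.

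Of 10 other mucosal defence proteins none was called over all arrays, with a median of 0.16, and without the discordant arrays MUC1 alone was. PIGR, which carries IgA across epithelium, was then at 0.65 and lactoferrin (LTF) at 0.42, neither called. Of 24 uterine gland products and regulators 1 was called over all arrays, FOXA2, and the median was -0.06.

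In the fit without the discordant arrays FOXA2 and MSX1 (1.12) were higher in ICAR, and IGF1 (-1.26) and HOXA10 (-0.98), which stroma also makes, were lower. SERPINA14, the main secreted serpin of the bovine uterus, was at 0.03. The list as a whole did not move with the members. It also holds regulators and genes that stroma makes, so it cannot tell whether the members follow the glands. The members are described here by their probes and not as gland markers. Of 79 list genes on the array 5 had several probes, and the brightest was used. The other probe of ESR1, the estrogen receptor alpha, gave another call without the discordant arrays.

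Ciliated cell markers were among the genes higher in ICAR. Over all arrays 3 of 8 were called higher in ICAR, RSPH1 (1.82), CAPS (1.22) and DNAH9 (1.14), and without the discordant arrays 7 of 8. Their summed level was then 1.89 to 7.13 in CAR and 2.52 to 10.8 in ICAR. Of 9 epithelial markers 0 were called over all arrays, and without the discordant arrays CLDN7, KRT8 and EPCAM were, at 1.003, 0.72 and 0.69. The epithelial sum was then 17.99 to 55.4 in CAR and 24.6 to 78.8 in ICAR.

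Stromal markers went the other way, with a median of -0.43 and 0 of 8 called over all arrays, and COL1A2 lower by 0.75 without the discordant arrays. None of 7 smooth muscle, 8 endothelial, 9 leukocyte and 2 red blood cell markers tested was called with or without them. The part of cell composition in the levels of BPIFB1 and SPDEF was not tested.

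**Figure D5:**
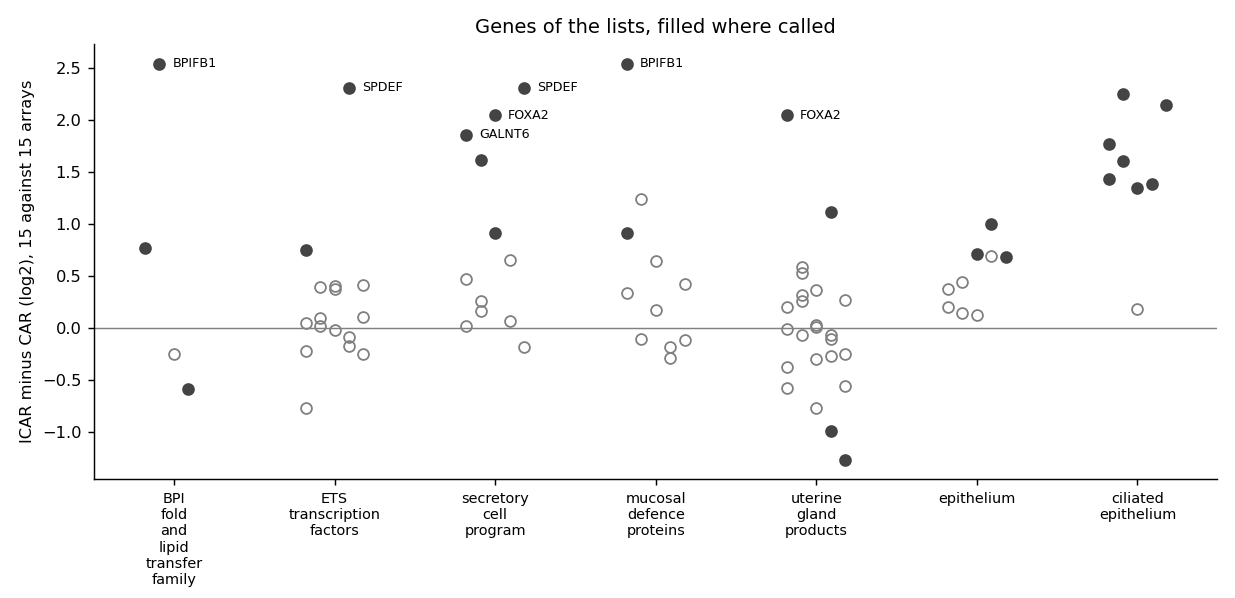
ICAR minus CAR (log2) over the 15 ICAR and 15 CAR arrays left without the discordant arrays, for each tested gene of the lists, with filled points for genes called at an adjusted p under 0.05 in limma. BPIFB1 and SPDEF, which were selected for this contrast, lie above the other genes of their lists at 2.54 and 2.31, and 2 ciliated cell markers, CCDC113 at 2.25 and RSPH1 at 2.15, and FOXA2 at 2.05 come next over all lists shown.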

How the data were processed

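The authors deposited Agilent Feature Extraction 9.5 output of 32 one-color arrays, 1 per sample, with processed intensity per spot, background-subtracted and detrended. The authors also deposited a log2 table, which equaled the values used here plus a constant per array of 0.00420 to 0.0140. Intensities were scaled to the 75th percentile of each array and taken as log2. Control spots and outlier flags were left out. Authors' normalization is not given in the sources used here.

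Probes well above background on 2 of 8, 4 of 16 or 8 of 32 arrays compared, with at least 3 values per group, were fitted with limma 3.58.1 in R 4.3.3, tested on simulated data, with Benjamini-Hochberg adjustment over all probes tested. RB comparisons used 8 arrays, and tissue comparisons all 32 with horn and status as covariates. Exact permutation tests were two-sided. The number of arrays limits precision, and p-values measure the spread between these samples. Comparisons across tissues or horns took several samples of a cow as independent, so their p-values do not measure the spread between cows.

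The members and gene lists were chosen with earlier results of these data known. Genes named are the members, the 6 symbols most correlated with each over 32 arrays and within ICAR, and list genes called, up to 3 per direction. List genes not called, and any called beyond 3, were picked for their known role after their values were seen.

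Alternatives were no filter, a filter on all arrays, quantile normalization, normexp with an offset of 50, the deposited table, the slide, scan session or replicate as a block, a joint fit of all arrays, the methods' t-test, the mean of both horns, and removal of each replicate. Removal of the discordant arrays was added after the data were seen. Probes were named by accession (2514), gene ID (1982), names in the files or likeness to a human gene in the description (860). Another 8231 of the 15208 probes had no name, so the lists and named genes leave them out.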

Additional observations from a re-analysis of the deposited data

Results flagged for a closer look

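In contralateral ICAR of RB cows, BPIFB1 was far lower in replicate 3, at -2.66, than in the other 3 arrays, at -0.17, -0.16 and 0.15. The gap to the nearest array was 0.888 of the range of the group, above Dixon's 95% critical value for 4 samples. This array is a discordant array. It was the only far value among 16 groups tested, and chance alone marks about 1 group in 20.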

How the results depend on the processing

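Every RB, horn and interaction comparison of the members tested by limma stayed above an adjusted p of 0.05 under each alternative run. The ICAR excess of both genes over all arrays stayed positive, at 1.94 to 2.54 for BPIFB1 and 1.79 to 2.31 for SPDEF across settings, and 1.83 to 2.49 and 1.64 to 2.26 as each replicate was left out. By horn and status, SPDEF in contralateral RB cows ran from -0.27 to 2.31 as replicates were left out, turning negative without RB replicate 4, and BPIFB1 from 0.16 to 2.76. The RB minus non-RB difference of SPDEF in contralateral ICAR, -0.52, was 0.21 without RB replicate 3 and 0.81 with slide as a block, and that of BPIFB1, -0.72, was 0.43 with slide as a block, all short of the threshold. In ipsilateral CAR that of BPIFB1 ran from -0.05 to 0.68 as replicates were left out, near 0 without non-RB replicate 3, and that of SPDEF from 0.13 to 1.11, while scan session as a block gave -0.06 and 0.18. In the ipsilateral horn the RB minus non-RB difference of the tissue contrast ran from 0.94 to 2.05 for BPIFB1 and from 0.57 to 1.56 for SPDEF. The ipsilateral minus contralateral difference in CAR ran from -0.03 to 0.75 for BPIFB1 and from -0.15 to 0.58 for SPDEF, and in ICAR from -0.13 to 0.80 and from 0.12 to 0.84. That of the tissue contrast ran from -0.77 to 0.62 and from -0.38 to 0.95, negative for both without RB replicate 3.

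The number of probes called between ICAR and CAR, 72, was 246 with slide as a block, 325 with scan session as a block, and 0 with no filter. It ran from 0 to 841 as each replicate was left out, and was 1160 without the discordant arrays. The causes were not tested.

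The relation of BPIFB1 and SPDEF lost its call in ipsilateral CAR and contralateral ICAR by Spearman's rho, at 0.52 and 0.74. Without the 2 arrays farthest from the median of SPDEF no compartment was called, at r of 0.59 in ipsilateral ICAR, 0.65 in contralateral ICAR, 0.74 in contralateral CAR and -0.15 in ipsilateral CAR. As replicates were left out, r ran from 0.53 to 0.82 in ipsilateral CAR, 0.65 to 0.95 in contralateral CAR and 0.58 to 0.93 in contralateral ICAR, where removal of RB replicate 3 ended the calls of both contralateral compartments. Ipsilateral CAR also lost its call without non-RB replicate 1 or 3 or RB replicate 1, 2 or 3, and without the discordant arrays (r of 0.73, unchanged, with a larger adjusted p). Ipsilateral ICAR ran from 0.91 to 0.98 and kept its call each time.

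Same-numbered arrays deviated together with a correlation above 0.1 in 22 of 24 RB and 21 of 24 non-RB pairs, and 28 of 32 arrays were most like their own number. Without the discordant arrays 19 of 19 RB pairs passed, the lowest at 0.107, while the non-RB count does not involve them. The labels do not say that a number is a cow and not every non-RB pair passed, so the numbers were not taken to pair the samples. With replicate number as a block, 905 probes were called between ICAR and CAR, and 0 with the same block on the mean of both horns, where the smallest adjusted p from limma was 0.0674. With the block the SPDEF difference in ipsilateral ICAR had an SE of 0.43 and an adjusted p from limma of 0.750, and r over the means of both horns was 0.78 in CAR and 0.93 in ICAR. In the RB, horn, interaction and relation comparisons the block changed no call of the members. On the mean of both horns neither member passed for ICAR against CAR, the contrast they were selected on.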
